A study of Mus musculus with 6 samples.

Results

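The neutrophil granule genes studied here are 9 transcripts chosen by name: the primary granule genes Mpo, Elane, Prtn3, Ctsg and Ms4a3, the secondary granule genes Ltf, Camp and Ngp, and the transcription factor gene Cebpe. All 9 were found among the 14943 gene symbols of the count table, and all 9 passed the filter on low counts that left 13980 genes tested. They were proposed with earlier results of the comparison of EPS with control in view, so their difference between these groups is given as a description. Whole peritoneum was sequenced from male wild-type C57BL/6J mice aged 8 weeks, in 3 control and 3 EPS libraries, where EPS stands for encapsulating peritoneal sclerosis, a fibrous encasement of the bowel. EPS mice had daily abdominal injections of 4.25% peritoneal dialysis solution at 100 mL/kg and of 0.3 mL SHS, an agent the labels do not spell out, plus weekly lipopolysaccharide (LPS, bacterial endotoxin) at 4 mg/kg. Control mice received saline in the same volume, and tissue was taken in week 3. Every EPS animal got the full combination, so the effects of dialysis solution, SHS and LPS cannot be told apart.

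Neutrophils fill their granules in steps as they mature in the bone marrow. Promyelocytes make the primary (azurophil) granules, which hold myeloperoxidase and the serine proteases neutrophil elastase, proteinase 3 and cathepsin G, and they stop transcribing these genes as they mature. Myelocytes and metamyelocytes then make the secondary (specific) granules, which hold lactoferrin, the cathelicidin CRAMP and neutrophilic granule protein, under control of the transcription factor C/EBP epsilon. Mature neutrophils in blood and tissue carry the stored proteins but little of either set of transcripts, and express genes such as Cxcr2 and Csf3r.

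Promoter sequences are shown for a pair of primary and a pair of secondary genes, since these sets are described as transcribed under different factors. RefSeq promoters (GRCm38.p6, 250 bases before to 50 after the start) were found for 8 of the 9 genes, Cebpe being the exception. Each line gives the bases from -150 to -66 before the RefSeq start, 5′ to 3′ on the gene's strand. Capitals mark GAGGAA, a core bound by PU.1 and related ETS factors, and TTGCNNAA, a C/EBP-type motif, each searched on both strands. The windows are chr10:79886162-79886246 (plus strand) for Elane, chr10:79879517-79879601 (plus) for Prtn3, chr9:111019142-111019226 (plus) for Ltf and chr9:110419658-110419742 (plus) for Ngp.
Elane: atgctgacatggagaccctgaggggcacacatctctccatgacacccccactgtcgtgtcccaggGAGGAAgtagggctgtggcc
Prtn3: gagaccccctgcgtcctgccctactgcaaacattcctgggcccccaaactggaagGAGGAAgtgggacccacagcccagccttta
Ltf: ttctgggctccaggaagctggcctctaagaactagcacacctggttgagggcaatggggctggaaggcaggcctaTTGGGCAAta
Ngp: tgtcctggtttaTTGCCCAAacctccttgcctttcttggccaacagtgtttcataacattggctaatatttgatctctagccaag
In the whole window of 300 bases, GAGGAA was found in 6 of the 8 promoters, those of the 5 primary genes and of Ltf, against 28.3% of 32851 promoters of the same length. Only those of Elane and Prtn3 lay in the printed stretch. The matches of Mpo (-247 and -224), Ctsg (-216), Ltf (-157) and Ms4a3 (35 after the start) lay outside it. TTGCNNAA was found in 3 promoters, those of Ltf, Ngp (at -138 and at -11) and Ms4a3 (at 41 after the start), against 10.8%. The promoter of Camp, a secondary gene, held neither motif, so the genes shown do not stand for all of their sets. TGTGGT, a RUNX core, searched on both strands, was found in the promoters of Ctsg and Ltf against 16.8%, and TATAAA, searched on the gene's strand, in none of the 8 against 8.3%. These are matches of letters, and no binding was measured.

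Library totals ran from 15419232 to 17684229 counts. The tissue's adipocyte markers were abundant in controls, all 6 of which were lower in EPS (30.4% of all tested genes were), and mesothelium markers were present in all libraries, with 0 of 5 called by edgeR. EPS 3 stood apart in the latter: the 5 mesothelium genes summed to 36.8 CPM there, against 160 and 193 in EPS 1 and EPS 2 and 117 to 182 in controls, and each was 0.13 to 0.38 times its level in EPS 1. Without EPS 3, Wt1 and Krt19 were called higher and Upk3b lower. EPS 1 stood apart in another way: 8 digestive enzyme genes of the exocrine pancreas summed to 113530 CPM there (CPM, counts divided by the TMM-scaled library size), against 117 and 365 in EPS 2 and EPS 3 and 225 to 2544 in controls. Ratios of the granule genes to EPS 1 are therefore accompanied by ratios to EPS 2. The closest pair of libraries was controls 1 and 2 (chi-square per gene 4.41 on average, compared with 15.9 and 16.4 when either was set against control 3). They still differed by more than sampling noise and were counted as 2 samples. In bulk tissue, more cells of a type and more RNA per cell cannot be told apart.

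The granule genes were close to absent in control peritoneum and present in every EPS library. Together they took 51, 45 and 79 counts in controls 1 to 3 and 3686, 12885 and 32417 counts in EPS 1 to 3. As a share of all counts, that was 0.0239% in EPS 1 (exact 95% interval 0.0231 to 0.0247). It was 0.0774% for EPS 2 (0.0760 to 0.0787) and 0.204% for EPS 3 (0.202 to 0.207), intervals that cover counting error only. All 9 were called higher in EPS by edgeR, a call made for 29.2% of all tested genes, and in all 9 every EPS library lay above every control library, as for 33.1% of tested genes. Nothing is read from these counts, since the genes were proposed from this contrast. The median log2 fold change was 9.93, or 7.62 with Ctsg and Ms4a3, which had no control count, at their bound; the median over all tested genes was -0.02.

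**Figure D1:**
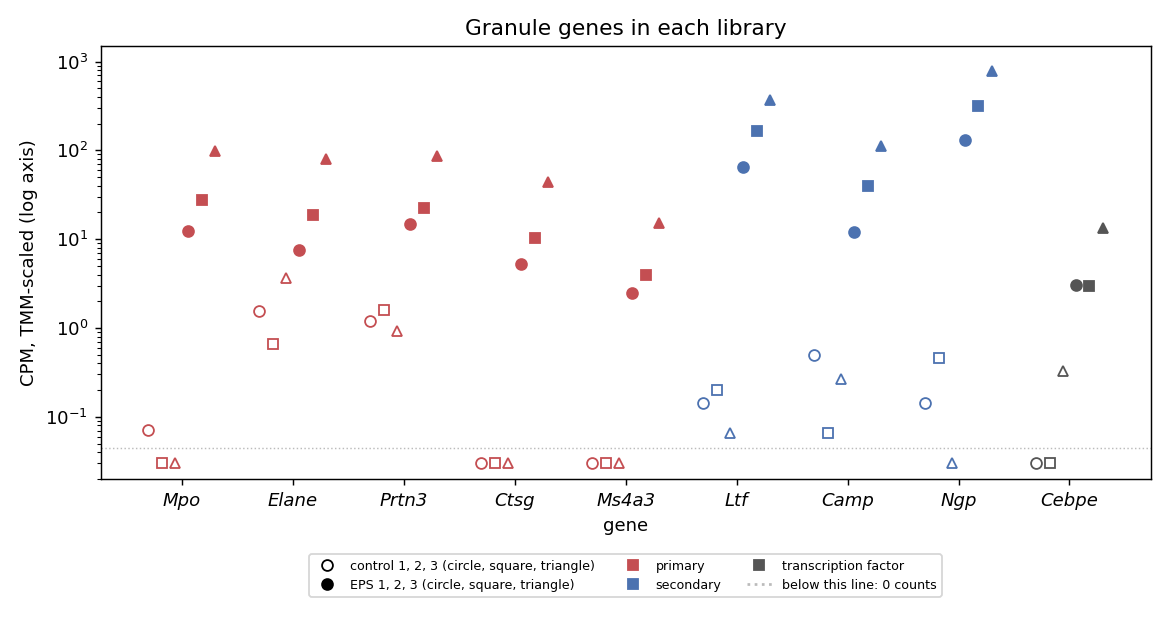
TMM-scaled CPM (log axis) of each of the 9 genes in each library; open symbols are controls, filled symbols EPS libraries, and symbols below the dotted line had 0 counts. Every EPS library lies above every control library for each gene, EPS 3 is the highest, and Elane and Prtn3 are the primary genes with counts in all 3 controls.

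Among the primary granule genes, Mpo encodes myeloperoxidase, the haem enzyme that makes hypochlorous acid (chromosome 11, 87793581 to 87804413). Mpo stood at 0.0714, 0 and 0 CPM in controls 1 to 3 and at 12.3, 27.5 and 98.8 CPM in EPS 1 to 3. Its single control count makes the ratio imprecise, 2182 with an exact 95% counting interval from 391 to 86211, and its fitted log2 fold change was 10.59 ± 1.59 (SE). Ctsg, for cathepsin G (chromosome 14, 56099881 to 56102574), was at 0 counts in each control library and at 5.197, 10.3 and 44.2 CPM in EPS, at least 313-fold higher against a floor of 3 counts over the control group. Ms4a3, a membrane protein of granulocyte and monocyte precursors (chromosome 19, 11629496 to 11640851), also had no control count. It stood at 2.49, 3.99 and 15.4 CPM in EPS, at least 114-fold higher, and per kilobase of exon it was the lowest of the primary genes in each EPS library.

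Elane and Prtn3 differed from the other primary genes in having control counts. Elane, for neutrophil elastase (chromosome 10, 79886247 to 79888215), stood at 1.57, 0.661 and 3.64 CPM in controls and at 7.62, 18.7 and 80.0 CPM in EPS. Prtn3, for proteinase 3 (chromosome 10, 79874476 to 79883174), stood at 1.21, 1.59 and 0.926 CPM in controls and at 15.0, 22.5 and 86.7 CPM in EPS. These genes held 142 of the 143 primary granule counts in the controls, and their ratios, 19.3 (15.6 to 24.2) for Elane and 35.2 (26.9 to 46.8) for Prtn3, were the smallest of the 9. The log2 fold changes were 4.17 ± 1.18 and 5.05 ± 0.87. The call for Elane was not stable: edgeR's adjusted p was 0.0987 without control 1, 0.0893 without control 2, 0.0541 without control 3, 0.0517 without EPS 2 and 0.0863 with controls 1 and 2 averaged, and limma-voom gave 0.0806. The edgeR call for Ctsg was lost without EPS 1 (adjusted p = 0.0507), without EPS 2 (0.106) and with library totals as the scaling (0.0744).

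The secondary granule genes were the most abundant of the 9 per kilobase of exon. Ngp, for neutrophilic granule protein, a cathelicidin relative (chromosome 9, 110419747 to 110423012), had 2, 7 and 0 counts in controls and stood at 132, 315 and 786 CPM in EPS 1 to 3. Ltf, for the iron-binding protein lactoferrin (chromosome 9, 111019271 to 111042767), had 2, 3 and 1 control counts and stood at 65.5, 165 and 369 CPM in EPS. Camp encodes the antimicrobial peptide precursor of CRAMP, which fat and epithelial cells can also make (chromosome 9, 109847379 to 109849617). Camp stood at 0.4999, 0.0661 and 0.265 CPM in controls and at 11.99, 40.2 and 112 CPM in EPS. The ratios of summed counts were 2153 (1134 to 4709) for Ngp, 1570.5 (721 to 4280.2) for Ltf and 217 (124 to 421) for Camp, and the 3 genes together had 27 counts over the controls against 39674 over EPS. The log2 fold changes were 10.93 ± 1.26, 10.45 ± 1.10 and 7.62 ± 1.27. Camp was not called by limma-voom (adjusted p = 0.0834).

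Cebpe, for C/EBP epsilon (chromosome 14, 54710360 to 54712174), was low in all libraries. It had 0, 0 and 5 counts in controls and stood at 3.05, 2.96 and 13.2 CPM in EPS, a ratio of 59.2 (25.2 to 183) and a log2 fold change of 5.75 ± 1.14. EPS 1 and EPS 2 did not differ beyond counting error (ratio of EPS 2 to EPS 1 0.97, interval 0.65 to 1.46), and which of them was lower depended on the scaling, with a ratio of 1.33 by library totals. All 5 of its control counts lay in control 3, and without control 3 its fitted log2 fold change, 9.77, depends on the prior count.

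The size of these differences rests in part on single libraries. Without EPS 1 the log2 fold changes were 4.74 for Elane, 5.54 for Prtn3, 11.12 for Mpo, 11.92 for Ctsg and 10.43 for Ms4a3. For Ltf, Camp, Ngp and Cebpe they were then 10.95, 8.18, 11.44 and 6.16, so all 9 were larger than with EPS 1. Without EPS 3, the highest library, edgeR still called all 9 genes, with lower log2 fold changes. They were 9.36 for Mpo, 2.75 for Elane, 3.91 for Prtn3, 9.96 for Ctsg and 8.71 for Ms4a3 among the primary genes. For Ltf, Camp, Ngp and Cebpe they were 9.65, 6.55, 10.05 and 4.64. With so few control counts, 1 control library also moves a value: Mpo stood at 12.64 without control 1, Ngp at 12.39 without control 2, Camp at 8.31 without control 1 and Elane at 4.99 without control 3. The fitted values of Ctsg and Ms4a3, and that of Mpo without control 1, rest on controls with no count and depend on the prior count.

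Levels were compared between genes per kilobase of exon. By mean CPM per kb in EPS the order was Ngp (336), Camp (72.3), Ltf (57.9), Elane (36.0), Prtn3 (23.9), Ctsg (19.3), Mpo (13.5), Cebpe (5.17) and Ms4a3 (3.87). All 3 secondary genes stood above all 5 primary genes in each EPS library. The ranges over the EPS libraries overlapped in all 8 pairs of neighbours in this order. Within libraries, 6 of the 8 pairs kept their order in all 3. Ngp was 6.84, 4.85 and 4.34 times Camp in EPS 1 to 3, and the ratio of the other 5 of these pairs ran from 1.13 to 3.37. The exceptions were Camp and Ltf, which changed places in EPS 1, at 15.8 and 19.0 CPM per kb, and Elane and Prtn3, which did so too, at 7.75 and 8.64.

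**Figure D2:**
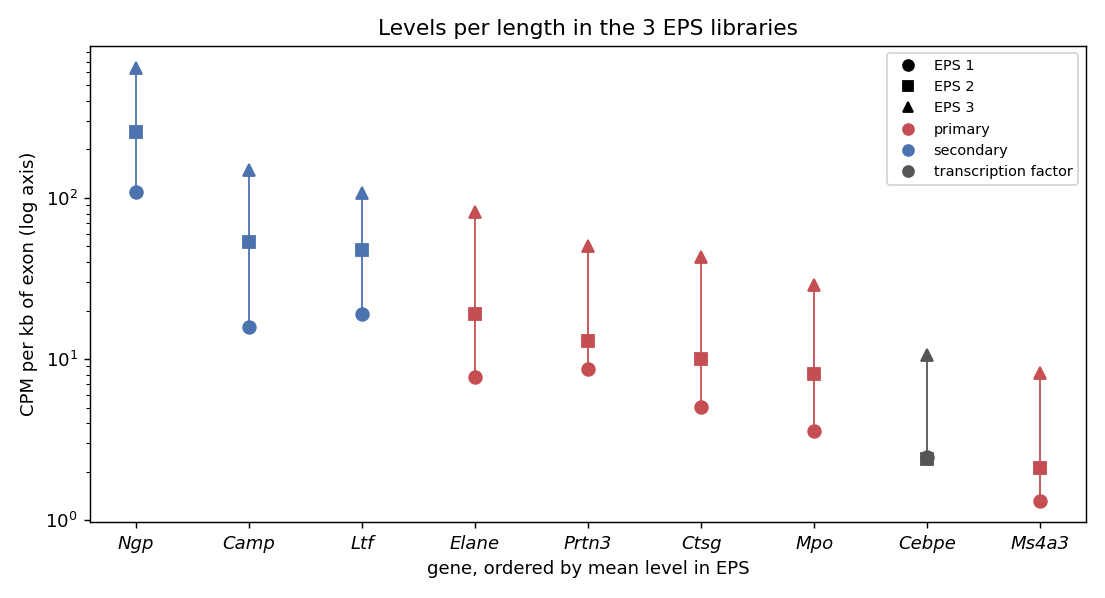
CPM per kilobase of exon (log axis) of each gene in EPS 1 (circle), EPS 2 (square) and EPS 3 (triangle), ordered by the mean. Ngp is highest at 108 to 643 CPM per kb, and the secondary genes (blue) lie above the primary genes (red) within each library.

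The EPS libraries themselves differed widely in these genes. EPS 3 was the highest library for all 9 genes, as for 35.6% of tested genes, and 8 of 9, all but Cebpe, were lowest in EPS 1 and highest in EPS 3, as were 20.5% of tested genes. The CPM ratio of EPS 3 to EPS 1 was between 5.63 (Ltf) and 10.5 (Elane) in the 8 granule protein genes and 4.34 in Cebpe. A ratio of at least 5 was reached by those 8 genes and by 0.486% of tested genes, whose median was 1.00 and whose 95th percentile was 1.79. Part of this spread was already shown for Ngp in earlier results of these data. Without EPS 1, the ratio of EPS 3 to EPS 2 was still between 2.24 (Ltf) and 4.47 (Cebpe), and all 9 genes were at 2 or more, against 1.92% of tested genes. EPS 3, the highest library in each of these genes, was also the one with the low mesothelium markers, whose part in the spread was not tested. With library totals in place of TMM the median of the highest over the lowest EPS library rose from 6.16 to 8.37.

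The 5 primary and 3 secondary genes chosen here were not spaced alike between the libraries. From EPS 1 to EPS 2 the primary genes differed 1.501 to 2.45-fold (median 1.99) and the secondary genes 2.38 to 3.36-fold (median 2.51). Between EPS 2 and EPS 3 the primary genes differed 3.59 to 4.28-fold (median 3.86) and the secondary genes 2.24 to 2.79-fold (median 2.499). In the second pair the ratios of the sets did not overlap. The counting intervals lay apart in 14 of the 15 pairs of a primary and a secondary gene, and those of Ms4a3 (3.016 to 4.948) and Camp (2.579 to 3.023) overlapped. Within the secondary set, the intervals of Ltf (2.155 to 2.336), Ngp (2.428 to 2.571) and Camp also lay apart from each other. Intervals that lie apart therefore do not by themselves mark a split between the sets. Cebpe, at 4.47 (3.38 to 5.98) between EPS 2 and EPS 3, lay near the primary genes in that pair only. From EPS 1 to EPS 2 it was at 0.97 (0.65 to 1.46), below each primary and each secondary gene. The gap between the sets does not depend on library scaling, which multiplies both alike. Granule genes outside the 9 did not all keep this gap. Between EPS 2 and EPS 3 the primary granule gene Prss57 differed 2.87-fold. The secondary granule genes Cd177 and Olfm4 differed 3.33-fold and 2.97-fold, with a median of 2.28 over 7 other secondary granule genes. No test was made, since each library is 1 sample.

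**Figure D3:**
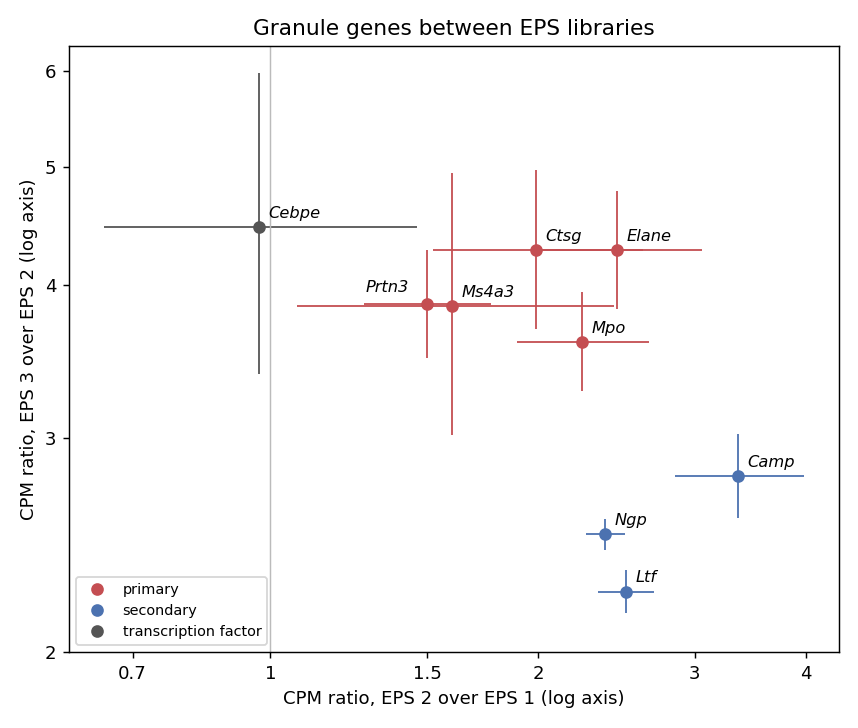
CPM ratio of EPS 2 to EPS 1 (horizontal, log axis) against EPS 3 to EPS 2 (vertical, log axis) for the 9 genes; bars are exact 95% counting intervals. The primary genes (red) lie at 3.59 or more on the vertical axis and the secondary genes (blue) at 2.79 or less.

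The balance of the sets was summarised as the mean log2 CPM per kb of the 3 secondary genes minus that of the 5 primary genes. It was 2.87 in EPS 1, 3.37 in EPS 2 and 2.70 in EPS 3 (mean 2.98 ± 0.35 SD, n = 3), so secondary transcripts exceeded primary ones 7.30-fold, 10.3-fold and 6.51-fold. EPS 2 had the highest balance and EPS 1 and EPS 3 were close to each other, although EPS 3 had 7.62 times the primary level of EPS 1 (geometric mean 33.3 against 4.37 CPM per kb) and 6.79 times the secondary level (217 against 31.9). EPS 2 was also the highest with each gene left out in turn. The size of the balance depended in part on Ngp: without Ngp the mean was 2.16 in place of 2.98. Controls gave no such value, since 3 of the 5 primary genes had 1 count between them.

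Other granule genes, from lists of known granule contents, did not share one pattern. Of the 4 tested genes for other primary granule contents, activators and inhibitors, 3 were higher in EPS and 1 was not called, with a median log2 fold change of 1.78. Of all tested genes, 29.2% were called higher. Srgn, for the packaging proteoglycan serglycin, Ctsc, for the protease that activates the granule serine proteases, and the protease inhibitor gene Serpinb1a rose by 1.98 ± 0.11, 1.59 ± 0.13 and 2.90 ± 0.35 (edgeR adjusted p = 3.77e-06, 2.43e-05 and 2.88e-04). Cd63, a membrane protein of azurophil granules and of lysosomes generally, was at 232 to 248 CPM in controls and 173 to 226 in EPS (adjusted p = 0.141). These 4 genes are active in many cells, with control means of 1 CPM or more, and their ratios of EPS 3 to EPS 1 were 0.64 to 1.13 (EPS 3 to EPS 2, 1.10 to 1.57). Prss57, for a further serine protease of primary granules and named after its values were seen, fell below the count filter and was at 0.416, 1.88 and 5.40 CPM in EPS 1 to 3, a ratio of 12.99 between EPS 3 and EPS 1, where it had 6 counts, and of 2.87 between EPS 3 and EPS 2.

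Of 7 other secondary granule genes, 6 rose, next to 29.2% of all tested genes, and Hp was not called (edgeR adjusted p = 0.443). Their median was 6.496, or 5.15 when Olfm4, which had no control count, is set to its bound. Cd177, a neutrophil surface protein stored in these granules, had 20.6, 24.9 and 82.7 CPM in the EPS libraries. The collagenase gene Mmp8 had 28.5, 31.5 and 63.7. Cybb and Cyba, the subunits of the NADPH oxidase membrane core, which macrophages also express, rose by 3.91 ± 0.20 and 3.03 ± 0.20 (edgeR adjusted p = 3.78e-06 and 9.58e-06). Cybb was lowest in EPS 3, at 179 CPM against 284 in EPS 1. Lcn2 encodes lipocalin 2, which epithelia also make, and was named after its values were seen. It stood at 1545, 116 and 310 CPM in EPS 1 to 3, highest where most of the 9 granule genes were lowest. Its ratio of EPS 3 to EPS 2, 2.67, lay within the range of Ltf, Ngp and Camp (2.24 to 2.79). Its peak lay in the library with the pancreatic transcripts, whose part in it was not tested.

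Genes of later stages were mostly called higher in EPS, next to 29.2% of all tested genes. Their ratios of EPS 3 to EPS 1 were smaller than those of the 8 granule protein genes. All 5 tertiary granule genes rose (median log2 fold change 3.56), among them Slc11a1, a metal transporter of phagocytes, by 2.14 ± 0.10, and the membrane protease gene Mmp25 by 5.45 ± 0.45 (edgeR adjusted p = 2.44e-06 and 3.96e-05). Adam8, a surface protease, and Itgam, the integrin CD11b, rose by 3.82 ± 0.36 and 3.56 ± 0.37 (adjusted p = 1.07e-04 and 1.46e-04). Of 15 mature neutrophil genes, 14 rose and Alpl was not called (edgeR adjusted p = 0.142, but 0.0161 with library totals and 0.0394 without EPS 2), with a median of 6.68, or 6.43 with the 2 genes that had no control count at their bounds. Csf3r, which encodes the G-CSF receptor, stood at 159, 101 and 149 CPM in EPS 1 to 3. Cxcr2, the receptor for neutrophil chemokines, stood at 31.5, 18.5 and 36.3 CPM, and Mcemp1 at 11.0, 7.14 and 15.3. The mature neutrophil genes did not share one order, and EPS 3 was the highest library in 9 of the 15. Ly6g followed the order of most granule genes, at 1.32, 2.30 and 6.29 CPM in EPS 1 to 3. Fpr1 was highest in EPS 1, at 47.2, 13.2 and 17.0 CPM. None of the 15 genes reached a ratio of 5 between EPS 3 and EPS 1, with a range from 0.36 to 4.78 and a median of 1.39. The 9 granule genes, at 4.34 to 10.5, overlapped with this range only at Cebpe. Between EPS 3 and EPS 2 the median was 1.96, and 7 of the 15 were at 2 or more, against 1.92% of tested genes. There the mature neutrophil genes ran from 1.22 (Fpr2) to 3.20 (S100a8) and overlapped with the 9 granule genes, at 2.24 to 4.47. The tertiary granule genes had a median of 1.58 in this ratio, with Mmp9 at 2.70.

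**Figure D4:**
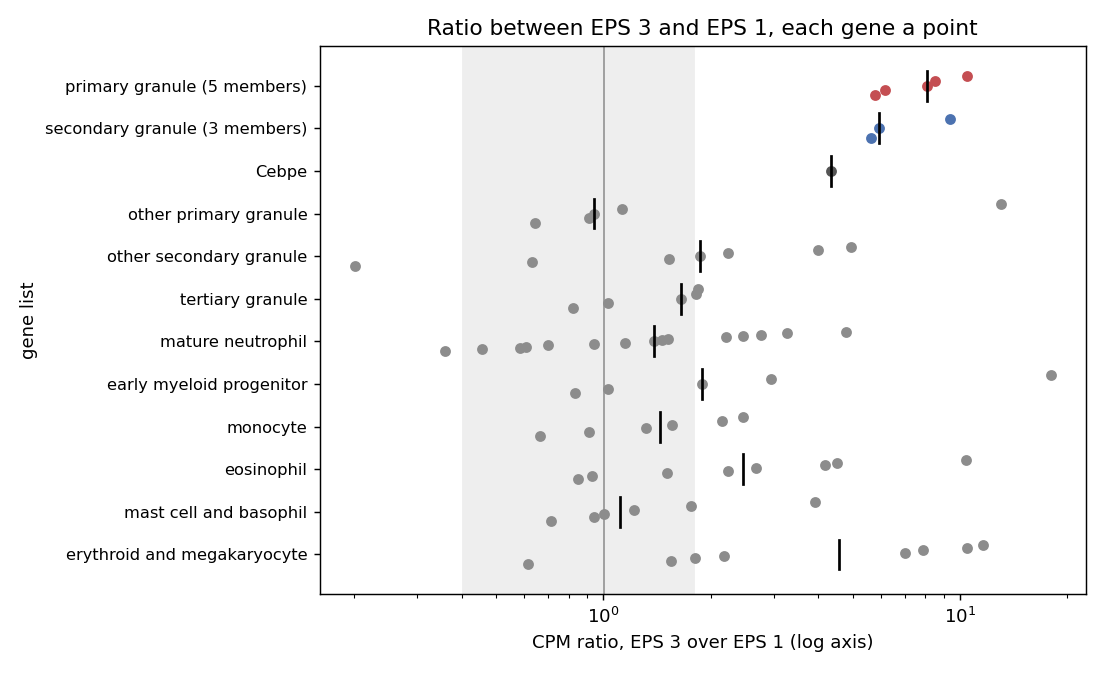
CPM ratio of EPS 3 to EPS 1 (log axis) for each gene of 12 lists; short bars are list medians, the grey line is the median of all tested genes (1.00) and the shaded band runs from their 5th to their 95th percentile (0.40 to 1.79). The 8 granule protein genes lie at 5.63 or more, while the 15 mature neutrophil genes lie between 0.36 and 4.78.

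Early progenitor genes split. Myb, a factor of immature blood cells, stood at 0.214, 0 and 0.132 CPM in controls and at 4.71, 6.63 and 13.9 in EPS. Flt3, a receptor of early progenitors and dendritic cells, rose by 4.24 ± 0.47 (edgeR adjusted p = 2.36e-04). Fcnb, for ficolin B, made by promyelocytes and myelocytes, stood at 0.786, 0.529 and 0.132 CPM in controls and at 1.18, 9.40 and 21.2 in EPS, a ratio of 17.96 between EPS 3 and EPS 1 and of 2.25 between EPS 3 and EPS 2. Its call was lost without control 2 (edgeR adjusted p = 0.0621), without control 3 (0.0574), with controls 1 and 2 averaged (0.0508) and by limma-voom (0.118). Kit, which mast cells also express, was at 30.4 to 38.5 CPM in controls and 33.1 to 37.3 in EPS and was not called. Cd34, which endothelium also expresses, fell by 0.58 ± 0.19 (adjusted p = 0.0299), a call lost in 7 alternatives. Of the 5 genes, 3 rose and 1 fell, next to 29.2% and 30.4% of all tested genes.

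Cebpe stood apart from its family. Cebpa, the C/EBP factor of early granulocyte commitment and of fat cells, fell from 858 to 931 CPM in controls to 124 to 172 in EPS (log2 fold change -2.60 ± 0.15, edgeR adjusted p = 5.65e-06), beside the adipocyte markers Adipoq, Plin1, Cidec and Fabp4, whose log2 fold changes were -3.79, -3.01, -3.48 and -3.46. Cebpb and Cebpg fell by 0.68 ± 0.23 and 0.52 ± 0.11 (adjusted p = 0.0325 and 0.00450), and with library totals Cebpa alone of these was called lower. The call for Cebpb was also lost without control 2 (edgeR adjusted p = 0.0795), control 3 (0.104), EPS 2 (0.0898) or EPS 3 (0.0747). Cebpd, at 53.7 to 98.2 CPM in controls and 40.2 to 64.2 in EPS, was not called (adjusted p = 0.134). Gfi1, a repressor needed for neutrophil differentiation, rose by 4.54 ± 0.39 and stood at 18.4, 9.63 and 18.5 CPM in EPS 1 to 3, which is not the order of the granule genes. Spi1, which encodes PU.1, Irf8, a monocyte and dendritic cell factor, and Runx1 rose by 3.52 ± 0.18, 3.98 ± 0.19 and 2.85 ± 0.16, with ratios of EPS 3 to EPS 1 between 1.22 and 1.52 and of EPS 3 to EPS 2 between 1.12 and 1.24. In all, 4 of these 8 factors rose and 3 fell, next to 29.2% and 30.4% of all tested genes.

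All 6 tested genes of neutrophil-directed signals rose, next to 29.2% of all tested genes, with a median of 2.67. The list held 10 genes, and Csf3, Csf2, Cxcl3 and Il17a were not in the count table, so nothing can be said on them. The neutrophil chemokine gene Cxcl5 had no control count and stood at 5.41, 2.21 and 6.14 CPM in EPS, and Cxcl2 rose by 4.75 ± 0.67 (edgeR adjusted p = 4.79e-04). Cxcl12, which holds neutrophils and their precursors in the marrow, rose by 1.56 ± 0.20, and Il17ra, an IL-17 receptor chain, by 2.97 ± 0.18 (adjusted p = 2.80e-04 and 6.22e-06).

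Markers of other cells that can carry some of these transcripts were measured beside them, and their calls stand next to 29.2% of all tested genes called higher. Eosinophils also use C/EBP epsilon: 5 of 7 tested eosinophil genes rose, and their summed level was 7.33 to 11.9 CPM in controls and 17.3 to 39.4 in EPS, highest in EPS 3. Prg2, for eosinophil major basic protein, stood at 3.33, 3.52 and 13.9 CPM in EPS 1 to 3, next to 3.05, 2.96 and 13.2 for Cebpe. The eosinophil genes Prg3, Siglecf and Il5ra rose by 5.59 ± 0.92, 3.08 ± 0.46 and 3.52 ± 0.77 (edgeR adjusted p = 0.00108, 6.11e-04 and 0.00468). Their part in the level of Cebpe was not tested. Mast cells can make cathepsin G: all 5 tested mast cell and basophil genes rose, among them Cma1, Mcpt4, Tpsb2 and Cpa3, with summed levels of 3.57 to 6.81 CPM in controls. In EPS the sums were 24.3, 30.4 and 25.7 CPM (EPS 1 to 3), and their part in the level of Ctsg was not tested. Of 6 monocyte genes, 5 rose, among them Ly6c2 (7.73 ± 0.54), Plac8 (4.29 ± 0.23), Chil3 (6.47 ± 0.48) and Ccr2 (1.94 ± 0.20), with summed levels of 119 to 137 CPM in controls and 442 to 676 in EPS, whose part in the granule gene levels was not tested.

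Red cell and platelet genes were measured as markers of blood. Of 7 tested, 1 rose (Itga2b, for a platelet integrin that mast cells and progenitors also express, by 3.01 ± 0.25) and 6 were not called. The haemoglobin gene Hba-a1, whose reads a near-identical copy shares, stood at 145, 145 and 17.1 CPM in controls and at 5.61, 43.9 and 58.7 in EPS 1 to 3. Among EPS libraries it was lowest in EPS 1 and highest in EPS 3, as 8 of the 9 granule genes were. Of the 8 red cell and platelet genes in the table, 4 had a ratio of EPS 3 to EPS 1 of 5 or more, against 0.486% of tested genes. These 4 had ratios as large as in the granule genes: Hbb-bt (11.6), Hba-a1 (10.5), Alas2 (7.86) and Ppbp (6.99). Their ratios of EPS 3 to EPS 2 were 1.29, 1.34, 1.17 and 7.73. The part of blood in the granule gene levels was not tested. Alas2, the haem synthesis enzyme of red cell precursors, and the platelet chemokine gene Ppbp had adjusted p-values of 0.306 and 0.247.

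By position, Prtn3 and Elane are neighbours on chromosome 10, 3072 bases apart on the same strand. The next gene, 2637 bases beyond Elane, is Cfd, for adipsin (79890853 to 79892655), named for its position. Cfd stood at 6962, 7309 and 8268 CPM in controls and at 1037.5, 1978 and 1876 in EPS, so it fell by 2.20 ± 0.25 (edgeR adjusted p = 1.58e-04) while its neighbours were higher. Ltf, Ngp and Camp all lie on chromosome 9 without being adjacent. Klhl18, 2913 bases beyond Ngp, was at 36.3 to 39.9 CPM in controls and 43.7 to 49.9 in EPS. Mcpt8, 14607 bases from Ctsg and a basophil protease gene, had no control count and stood at 0.762, 0.564 and 1.34 CPM in EPS. The protocol marks no strand, Prtn3 overlaps Plppr3 on the opposite strand, and the proteases share related sequences, so these values carry that uncertainty.

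The genes outside the 9 whose profiles were nearest to those of the granule genes were sought over the 6 libraries. The search covered 14264 genes and used the Euclidean distance of centred log2 CPM. Nearest to the mean primary profile were Ccl22 (distance 0.90), Itgb2l (1.05), Cd3d (1.24), Ltb (1.31) and Tcf7 (1.31). Nearest to the mean secondary profile were S100a9 (1.58), Apol7c (1.79), S100a8 (1.90), Glycam1 (1.91) and Cd5l (2.11). Itgb2l was at 0, 0.0661 and 0 CPM in controls and 4.78, 7.14 and 20.3 in EPS, and S100a9 at 0.428, 0.727 and 0.397 and at 126, 122 and 311. Each of these genes had a smaller CPM ratio of EPS 3 to EPS 1 than any of the 9 granule genes. Ccl22, a macrophage and dendritic cell chemokine gene, stood at 47.2, 70.4 and 158 CPM in EPS 1 to 3.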

How the data were processed

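RNA sequencing counts from 6 peritoneum libraries were used. The authors deposited raw read counts for gene symbols, which are whole numbers with unequal library totals and carry no normalization. Per the labels' protocols, polyadenylated RNA was selected from Trizol extracts, and no step marked strand. Per the submitters' processing notes, the build was mm10. How reads were aligned, counted and shared between similar genes is not stated in the sources used here. Genes were kept by filterByExpr, scaled by TMM and tested with edgeR 4.0.16 (quasi-likelihood, robust, no covariates, Benjamini-Hochberg over 13980 genes, called at adjusted p under 0.05, R 4.3.3). The test was checked on simulated data with a constant spread and modest changes in genes well counted in controls. That setting does not cover genes with as few control counts as the granule genes. SEs of log2 fold changes (written after ±) were taken as estimate over the root of the F statistic. CPM are on TMM-scaled library sizes. Ratios carry exact 95% intervals, and folds against 0 counts use a floor of 3 counts over the group. Exon lengths and gene positions are from GENCODE vM21 (GRCm38, the assembly mm10 denotes), which held 14674 of 14943 symbols. No source says that libraries come from separate animals, so p-values measure only the spread between these samples.

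Members, gene lists and tests were chosen with earlier results of these data known. Up to 4 genes of lowest adjusted p per list, genes called against the list's direction, Cebpa, Cebpb, Cebpd and Gfi1, and the 5 genes nearest in profile were named by rule, and genes named outside it were chosen after their values were seen. Of 110 list genes outside the members, 98 were in the table. Alternatives were RLE, upper-quartile and no scaling factors, no filter, DESeq2 1.42.0, limma-voom (limma 3.58.1), a replicate block, controls 1 and 2 averaged, and each library left out. One listed gene is not reported here by name.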

Additional observations from a re-analysis of the deposited data

How the results depend on the processing

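All 9 granule genes were higher in EPS under each of the 14 alternatives, and the calls lost are those given for Elane, Ctsg and Camp. Over all genes, 4088 were called higher and 4245 lower, and leaving out each library gave 3459 to 4393 higher and 3545 to 4155 lower. With library totals 5657 were higher and 2182 lower, since that scaling moved the median log2 fold change from -0.02 to 0.41. The progenitor list had 1 gene called lower, and 0 with library totals, with controls 1 and 2 averaged and without any library but EPS 2 (0 to 1 over these). With library totals 1 transcription factor gene was lower in place of 3, and 1 mesothelium gene was higher in place of 0. Without each library in turn, 0 to 2 mesothelium genes were higher and 0 to 1 lower, and 0 to 1 pancreas genes were lower. By limma-voom 1 mesothelium gene was lower.

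Whether the replicate numbers pair the samples could not be told. Deviations of same-numbered libraries from their group means correlated at 0.20, -0.10 and 0.24. Controls 1 and 3 correlated best with their same-numbered EPS library, and control 2 with EPS 1 (0.19). Deviations from a mean of 3 libraries depend on each other, so these values cannot settle it. With the replicate block 3947 genes were higher and 4166 lower, 1 mesothelium gene was lower in place of 0, and the calls for Mmp9 (adjusted p = 0.0651) and Fcnb (0.0670) were lost. The mean balance of secondary over primary genes, 2.98, was 2.04 with medians over genes, 2.501 without Ms4a3, 3.42 without Ltf, 3.36 without Camp, 2.16 without Ngp and 2.79 to 3.12 without 1 EPS library. Without Elane and Prtn3, chosen after seeing the data, it was 3.59. The median of highest over lowest EPS library, 6.16, was 8.37 with library totals, 6.50 with RLE factors and 3.85 without EPS 1 (also chosen after seeing the data). Where causes are not stated, the cause was not tested. Control counts of 0 to 3 limit every fold of Mpo, Ctsg, Ms4a3 and Ltf, and a count of 0 allows up to 0.170 to 0.195 CPM (of unscaled totals) in a single library.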
